A study of Mus musculus with 6 samples.

Results

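SR proteins and heterogeneous nuclear ribonucleoproteins (hnRNPs) are the 2 large families of RNA-binding proteins that decide, together with the spliceosome, which exons are kept in an mRNA. The genes described here are every row of the deposited gene table whose symbol is Srsf followed by a number, or begins with Hnrnp, pseudogene symbols ending in -ps being left out. The rule found 31 of 34724 genes, 11 SR protein genes and 20 hnRNP genes, and there were 0 symbols with -ps to leave out. Expression was compared between 2H-11, labelled tumor endothelial cells, and SVEC4-10, labelled normal endothelial cells. Both are mouse lines of adult C3H/HeJ axillary lymph node transformed with SV40, and each was represented by 3 direct RNA libraries, in which a nanopore reads the polyadenylated RNA itself and 1 read is 1 molecule. With 1 line of each kind, tumor status and line identity cannot be told apart. Separate cultures behind the libraries of a line are stated nowhere in the labels, and p-values therefore rest only on library-to-library spread, possibly technical.

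An SR protein pairs one or more RNA recognition motifs with a tail rich in arginine and serine; bound to exons, it recruits the splicing machinery, and kinases of the SRPK and CLK families control its activity and location. The hnRNPs coat nascent transcripts through RNA recognition, KH or RGG domains and often act against the SR proteins by silencing exons, besides their roles in RNA export, stability and translation. Many members of both families hold down their own mRNA through exons that bring in an early stop codon, so that the transcript is degraded by nonsense-mediated decay. In endothelial cells, as in other cells, these proteins are made constitutively, and the balance between them is known to shape splicing.

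Counted reads per library were 5375133, 4105369 and 5825968 in 2H-11 replicates 1 to 3, and 4278424, 3628400 and 16798666 in SVEC4-10 replicates 1 to 3. Levels are given as CPM, the count of a gene scaled to a common library total, and ± gives the SD (n = 3 libraries in each line). The defining markers of endothelial cells did not bear out the labels in either line. Of 10 pan-endothelial genes, Cldn5, Emcn, Erg, Tie1 and Vwf were at 0 in all 6 libraries and 9 were under 1 CPM in every library, with a summed level of 4.63 to 6.69 CPM in 2H-11 libraries and 0.935 to 1.38 CPM in SVEC4-10. The 6 mesothelial markers summed to 58.5 to 72.4 CPM in 2H-11 libraries and 3162 to 4067 CPM in SVEC4-10, and the 8 fibroblast and mural markers to 1799 to 2304 CPM in 2H-11 libraries and 2087 to 2195 CPM in SVEC4-10. Single markers went opposite ways within those sums: Dcn averaged 13.8 CPM in 2H-11 libraries, against 307 CPM in SVEC4-10, Col1a2 549 CPM in 2H-11 libraries, against 201 CPM in SVEC4-10, and the mesothelial marker Krt19 22.0 CPM in 2H-11 libraries, against 0.196 CPM in SVEC4-10. Pdgfrb averaged 27.5 CPM in 2H-11 and had 0 counts in SVEC4-10. Leukocyte markers, of which Cd3e and Itgam were at 0, summed to 2.92 to 4.12 CPM in 2H-11 libraries and 3.21 to 5.51 CPM in SVEC4-10. The 5 epithelial markers, of which Cdh1 and Epcam were at 0, summed to at most 0.731 CPM in a 2H-11 library and 3.39 to 5.38 CPM in SVEC4-10. The lines are therefore called by their names, and the part of cell identity in the differences below was not tested.

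As a class these splicing factors differed little between the lines. Of 31 members, 30 passed the filter on low counts, and the other, Srsf12, had no count in any library, which leaves room for at most 0.196 CPM over 2H-11 and 0.121 CPM in SVEC4-10 (3 counts over the libraries of a line; counting error only). Only 1 gene, Hnrnpr, was higher in 2H-11 and 4, namely Hnrnph3, Hnrnpf, Hnrnpdl and Hnrnpul2, were lower (quasi-likelihood test of edgeR, p adjusted by Benjamini-Hochberg, threshold 0.05). Of all 13187 genes tested 36.2% passed the same threshold, 20.1% as higher and 16.2% as lower, against 16.7% of the tested members. All members carry Ensembl identifiers, and of the 10149 tested genes that do, 31.8% passed, 13% as higher and 18.8% as lower. In this fit lower calls therefore also outnumbered higher ones among Ensembl genes. When only genes with Ensembl identifiers were fitted, 1657 of 10170 were higher and 1631 lower, so that lean was not kept. None of the 10 tested SR protein genes passed by edgeR, 0 had an unadjusted p under 0.05, and DESeq2 and limma-voom also called 0 of them. Both families were read in plenty: together they took 0.950, 0.911 and 0.725% of the counts of the 2H-11 libraries, against 0.792, 0.958 and 0.937% in SVEC4-10. The shares overlapped between the lines, with 2H-11 replicate 3 and SVEC4-10 replicate 1 lowest in their lines.

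No member reached a 2-fold difference (Hnrnpul2 did so without 2H-11 replicate 3, at a log2 fold change of -1.04), which 25.8% of all genes and 18.9% of Ensembl genes tested did. Fold changes came from counts rescaled between libraries (TMM), so that a small one can differ in sign from the ratio of mean CPM. The median log2 fold change (2H-11 over SVEC4-10) was -0.15 over the tested members and 0.00 over all genes, but -0.10 over Ensembl genes, near that of the members. With only Ensembl identifiers fitted, it was -0.0437 over the members and -0.0013 over all genes of that fit. The median size of the log2 fold change was 0.20 for the members and 0.49 for all genes, with 0.41 for Ensembl genes. Genes were not matched on abundance in these comparisons. Over the lists of splicing genes described below, the median size was lowest for SR-related coactivators (0.16) and core snRNP and spliceosome genes (0.18), with 0 genes past 2-fold in both. It was highest, at 0.41, for hnRNP proteins under other symbols and for arginine methylation genes. Members were also measured more tightly, with a median SE of 0.19 on the log2 scale against 0.27 over all genes tested and 0.25 over Ensembl genes. The 95% interval of the fold change stayed within 2-fold in either direction for 26 of the 30 members, and within 1.5-fold for 10 of them. Exceptions to the 2-fold limit were Hnrnph3, Hnrnpf and Hnrnpul2, which passed the test, and Srsf4, which did not. The libraries of one line lay wholly above or below those of the other for 5 members, 2 with 2H-11 above and 3 with 2H-11 below, while 46.8% of all genes and 43.4% of Ensembl genes tested showed no overlap.

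**Figure D1:**
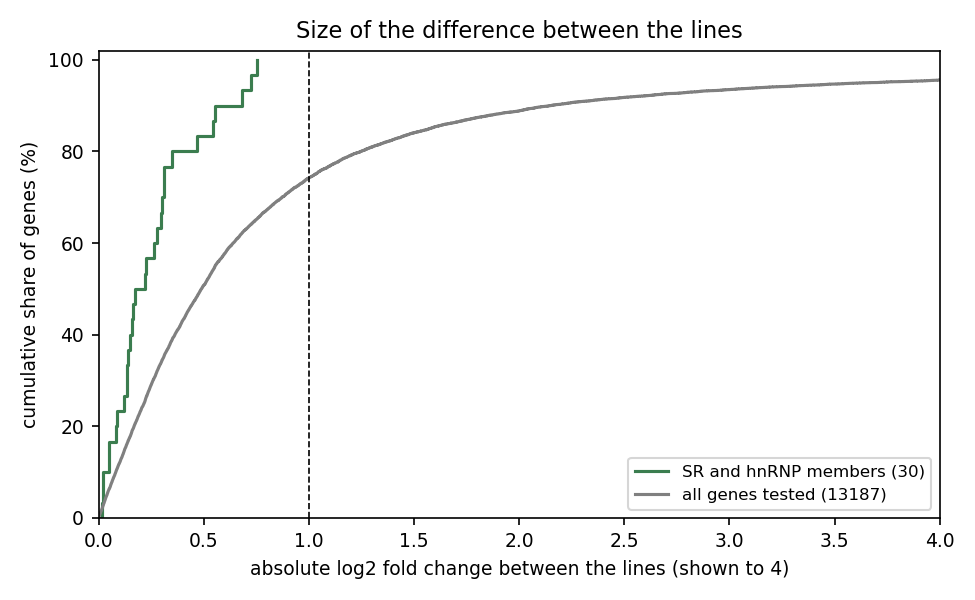
Cumulative share of genes (y axis, percent) against the size of the log2 fold change between 2H-11 and SVEC4-10 (x axis, drawn to 4), for the 30 tested SR and hnRNP genes in green and all 13187 genes tested in grey; the dashed line marks a 2-fold difference. The green curve is complete before the dashed line, whereas 25.8% of all genes lie beyond it.

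**Figure D2:**
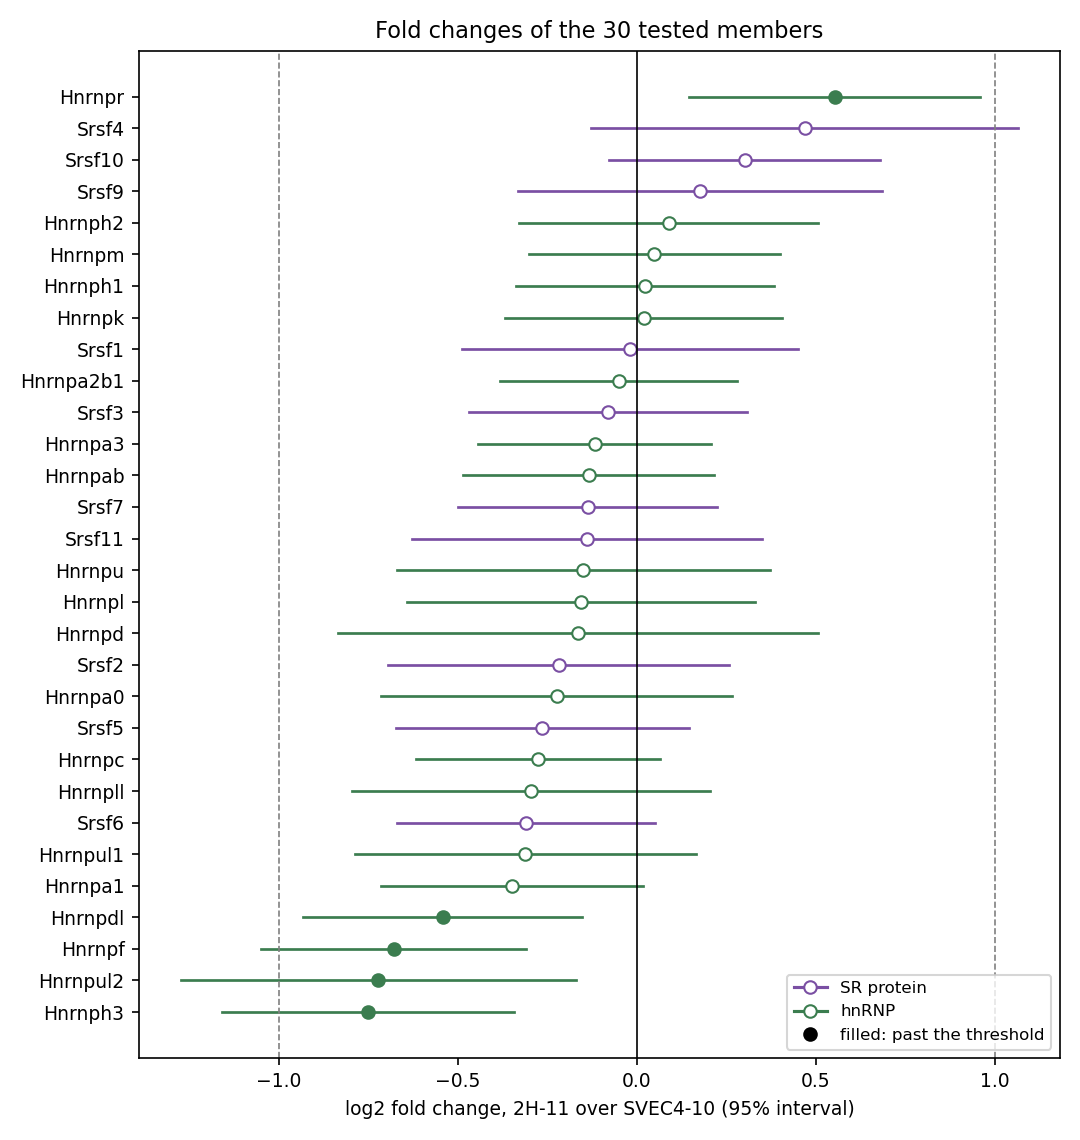
Log2 fold change (2H-11 over SVEC4-10, x axis) of each tested member with its 95% interval, SR proteins in purple and hnRNPs in green, from highest to lowest down the page; filled points passed the threshold and dashed lines mark 2-fold. Filled points are Hnrnpr on the right and Hnrnpdl, Hnrnpf, Hnrnpul2 and Hnrnph3 on the left, and all purple points are open.

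The clearest differences were in the hnRNP F/H group, whose proteins bind runs of guanine near splice sites and polyadenylation sites. Hnrnpf (ENSMUSG00000042079, chromosome 6, 117900324 to 117925622 in GRCm38) stood at 477, 413 and 329 CPM in 2H-11, against 542, 698 and 574 CPM in SVEC4-10. Every 2H-11 library was below every SVEC4-10 library, and Hnrnpf was 1.60-fold lower in 2H-11 (log2 difference -0.68 with SE 0.18, adjusted p = 0.00521; means 406 ± 74.6 CPM over the 2H-11 libraries and 605 ± 82.6 CPM over those of SVEC4-10). Hnrnph3, the shortest protein of the group (ENSMUSG00000020069, chromosome 10, 63014664 to 63024217), was at 44.5, 44.8 and 47.2 CPM in 2H-11, against 80.9, 54.8 and 80.2 CPM in SVEC4-10. Again the lines did not overlap, the 2H-11 libraries lying close together and SVEC4-10 replicate 2 nearest to them, and Hnrnph3 was 1.68-fold lower (log2 difference -0.75 with SE 0.19, adjusted p = 0.00500). Their relatives Hnrnph1 and Hnrnph2 did not pass the threshold. Hnrnph1, the gene of hnRNP H, was at 278, 311 and 214 CPM in 2H-11, against 231, 237 and 268 CPM in SVEC4-10 (log2 fold change 0.02, interval -0.34 to 0.38, adjusted p = 0.937), and Hnrnph2, which encodes a close copy of it on chromosome X, was at 84.8, 92.8 and 56.3 CPM in 2H-11, against 73.4, 68.9 and 63.3 CPM in SVEC4-10 (interval -0.33 to 0.51, adjusted p = 0.770). In both genes the libraries of the lines were interleaved, and 2H-11 replicate 3 was the lowest of the 6. Both Hnrnpf and Hnrnph3 passed the threshold in all 16 alternative analyses, with adjusted p of at most 0.0223 for Hnrnpf and 0.0284 for Hnrnph3.

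**Figure D3:**
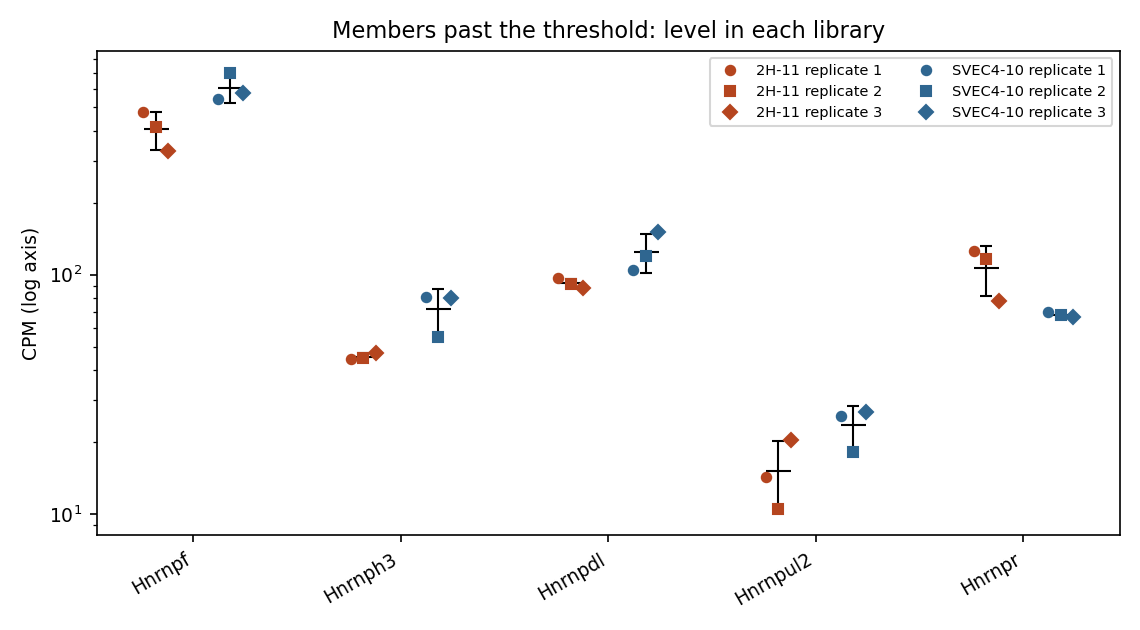
CPM in each library (y axis, log scale) of the 5 members that passed the threshold, 2H-11 in orange on the left of each pair and SVEC4-10 in blue on the right; symbols are replicates, and bars are the mean with its SD over 3 libraries. Hnrnpf, Hnrnph3 and Hnrnpdl lie lower in 2H-11 without overlap, Hnrnpr lies higher without overlap, and Hnrnpul2 overlaps.

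Hnrnpf, Hnrnph1 and Hnrnph2 are alike in sequence, so the opening of their coding sequences is set beside their counts. Whether reads reached this stretch was not examined. Shown are the first 90 coding bases of each principal transcript (GENCODE M21, GRCm38, 5′ to 3′ in the sense of the mRNA), with capitals where the base differs from Hnrnph1.
Hnrnph1: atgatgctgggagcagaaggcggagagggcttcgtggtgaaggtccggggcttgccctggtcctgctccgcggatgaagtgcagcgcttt
Hnrnph2: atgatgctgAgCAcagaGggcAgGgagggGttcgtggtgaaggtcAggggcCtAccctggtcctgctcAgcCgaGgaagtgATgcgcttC
Hnrnpf: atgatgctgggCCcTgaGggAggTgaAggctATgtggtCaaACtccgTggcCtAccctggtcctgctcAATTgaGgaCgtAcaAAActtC
In this stretch Hnrnph2 differs from Hnrnph1 at 16 bases and Hnrnpf at 26. Over the whole coding sequence 85.9% of the aligned bases were identical between Hnrnph1 and Hnrnph2, 77.7% between Hnrnpf and Hnrnph1, and 73.7% between Hnrnph1 and Hnrnph3. How reads were aligned and counted is not stated in the labels, so sharing of reads between these genes, or with processed copies of members, could not be measured. Within a library, the log2 ratio of Hnrnpf to Hnrnph1 counts was 0.78, 0.41 and 0.62 in 2H-11, against 1.23, 1.56 and 1.10 in SVEC4-10, and that of Hnrnph3 to Hnrnph1 was -2.65, -2.79 and -2.18 in 2H-11, against -1.52, -2.11 and -1.74 in SVEC4-10. Each ratio was lower in every 2H-11 library than in every SVEC4-10 library. Any effect of transcript length on counts would cancel in the difference between lines, not in the ratio itself. These and the other ratios of paralogs were chosen after the values were seen and are given without a test.

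Hnrnpr rose in 2H-11. Its protein, a relative of hnRNP Q with RNA recognition motifs and RGG repeats, is known for binding mRNAs transported in nerve cells (ENSMUSG00000066037, chromosome 4, 136310942 to 136359447). The levels were 126, 117 and 77.9 CPM in 2H-11, against 69.9, 67.5 and 66.4 CPM in SVEC4-10, without overlap, 2H-11 replicate 3 lying nearest to the other line, and Hnrnpr was 1.47-fold higher (log2 difference 0.55 with SE 0.19, adjusted p = 0.0323). This call was lost in 7 of the 16 alternative analyses, among them the one without a filter on low counts (adjusted p = 0.0687) and the omission of any 1 library other than 2H-11 replicate 3 (adjusted p 0.0793 to 0.155 in those 5). Its closest paralog Syncrip, the gene of hnRNP Q (ENSMUSG00000032423, chromosome 9, 88447009 to 88482574), went the other way. Syncrip was at 123, 125 and 83.1 CPM in 2H-11, against 143, 202 and 169 CPM in SVEC4-10, and was 1.67-fold lower in 2H-11 without overlap (log2 difference -0.74 with SE 0.20, adjusted p = 0.00687), a call that held in all 16 alternatives. The coding sequences of Hnrnpr and Syncrip shared 76.0% of aligned bases. In each library the log2 ratio of Hnrnpr to Syncrip counts was 0.03, -0.10 and -0.09 in 2H-11, against -1.03, -1.58 and -1.35 in SVEC4-10. The 2H-11 libraries lay near 0 and the SVEC4-10 libraries below -1.

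**Figure D4:**
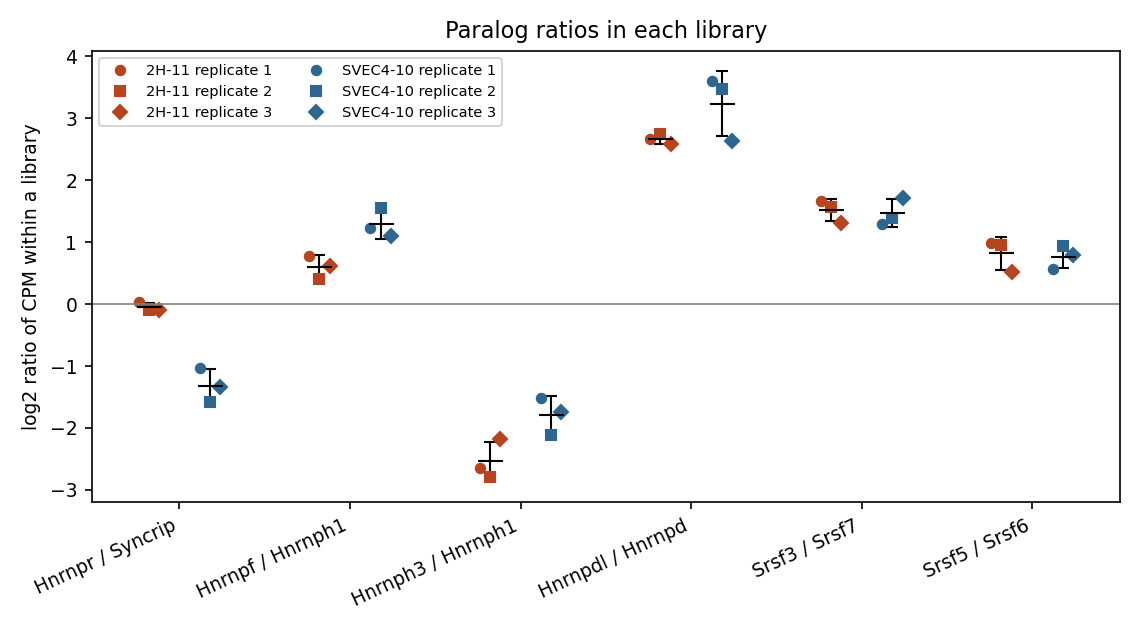
Log2 ratio of the CPM of 2 related genes within each library (y axis) for 6 pairs, 2H-11 in orange on the left and SVEC4-10 in blue on the right; symbols are replicates, and bars are the mean with its SD over 3 libraries. Hnrnpr over Syncrip is higher in 2H-11 and Hnrnpf and Hnrnph3 over Hnrnph1 are lower, without overlap, while Hnrnpdl over Hnrnpd and the 2 SR protein pairs overlap.

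In the AB/D group, whose best known member Hnrnpd encodes AUF1, a protein that binds AU-rich elements and governs mRNA decay, 1 of 3 genes passed. Hnrnpdl, the gene of the D-like protein (ENSMUSG00000029328, chromosome 5, 100033577 to 100039664), was at 96.6, 91.3 and 88.4 CPM in 2H-11, against 104, 119.9 and 150.4 CPM in SVEC4-10. All 2H-11 libraries were below those of SVEC4-10, and it was 1.46-fold lower (log2 difference -0.54 with SE 0.19, adjusted p = 0.0284). This call was lost in 6 of 16 alternatives, including the omission of SVEC4-10 replicate 3, its highest library (adjusted p = 0.125), the omission of 2H-11 replicate 2 (adjusted p = 0.0987), library totals alone, Ensembl identifiers only and thinning to the smallest library (adjusted p 0.0607 to 0.0619). Hnrnpd was at 15.3, 13.6 and 14.8 CPM in 2H-11, against 8.65, 10.7 and 24.2 CPM in SVEC4-10 and did not pass (adjusted p = 0.728); the 2H-11 libraries lay together, whereas SVEC4-10 ran from below to above them. Hnrnpab, a regulator of transcription and splicing, was at 509 ± 38.5 CPM over the 2H-11 libraries and 520.4 ± 74.2 CPM over those of SVEC4-10 and did not pass (interval -0.49 to 0.21).

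The U group holds nuclear matrix proteins that bind chromatin-associated RNA. Hnrnpul2 (ENSMUSG00000071659, chromosome 19, 8820010 to 8834143), known for a role at DNA breaks, was at 14.3, 10.5 and 20.4 CPM in 2H-11, against 25.7, 18.2 and 26.6 CPM in SVEC4-10. The library 2H-11 replicate 3 lay above SVEC4-10 replicate 2, so that the lines overlapped, and Hnrnpul2 was 1.65-fold lower in 2H-11 (log2 difference -0.72 with SE 0.26, adjusted p = 0.0383). It had 239 counts in 2H-11 and 623 in SVEC4-10, and its call was lost in 5 of 16 alternatives: with library totals alone, with Ensembl identifiers only, and without 2H-11 replicate 1, 2H-11 replicate 2 or SVEC4-10 replicate 3 (adjusted p 0.0757 to 0.198). Hnrnpu, the scaffold attachment factor that ties Xist RNA to the inactive X chromosome, was at 128, 139 and 110.4 CPM in 2H-11, against 91.2, 94.8 and 201 CPM in SVEC4-10 and did not pass (adjusted p = 0.679). SVEC4-10 replicate 3, the deepest library, held 2.21 times the level of the lowest library of its line. Hnrnpul1 was at 22.6 ± 3.59 CPM over the 2H-11 libraries and 26.0 ± 6.20 CPM over those of SVEC4-10 (adjusted p = 0.307).

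Genes of the A/B group, and with them Hnrnpk and Hnrnpc, did not pass the threshold. These proteins are the core of hnRNP particles: A1 and A2/B1 silence exons, C binds uridine tracts of introns, and K binds cytosine-rich RNA and DNA. Hnrnpa1 came nearest, at 1417, 1200.4 and 933 CPM in 2H-11, against 1226, 1584 and 1391 CPM in SVEC4-10 (log2 fold change -0.35, interval -0.72 to 0.02, adjusted p = 0.131); its lines overlapped only through 2H-11 replicate 1. It passed, as lower in 2H-11, in 3 alternatives: without a filter on low counts (adjusted p = 0.0403), without 2H-11 replicate 1 (adjusted p = 0.0375) and without SVEC4-10 replicate 1 (adjusted p = 0.0253). Hnrnpa2b1 was at 1153 ± 181 CPM over the 2H-11 libraries and 1113 ± 56.6 CPM over those of SVEC4-10, with an interval of -0.38 to 0.28. Hnrnpa3 was at 979.7 ± 62.2 CPM over the 2H-11 libraries and 992 ± 92.0 CPM over those of SVEC4-10, with an interval of -0.44 to 0.21. For these 2 genes a difference beyond 1.5-fold lay outside the 95% interval. Hnrnpk ran from 782 to 1282 CPM in 2H-11 libraries and from 855 to 1100.4 CPM in SVEC4-10, with a log2 fold change of 0.02 (interval -0.37 to 0.41). Hnrnpc was at 286 ± 17.6 CPM over the 2H-11 libraries and 323 ± 30.8 CPM over those of SVEC4-10 (adjusted p = 0.201), and Hnrnpa0, the intronless member of the group, was at 32.3 ± 7.79 CPM over the 2H-11 libraries and 35.2 ± 7.29 CPM over those of SVEC4-10 (adjusted p = 0.490). The remaining hnRNP genes, Hnrnpl and Hnrnpll, which bind CA repeats, and Hnrnpm, had log2 fold changes of -0.16, -0.30 and 0.05, and overlapped between the lines.

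Among the SR proteins the differences stayed below the threshold in every subgroup. Srsf3, the smallest SR protein and a regulator of splicing and mRNA export, was at 1008, 913 and 689.8 CPM in 2H-11, against 668, 953 and 942 CPM in SVEC4-10 (log2 fold change -0.08, interval -0.47 to 0.31). Its relative Srsf7 was at 301 ± 21.0 CPM over the 2H-11 libraries and 308 ± 49.2 CPM over those of SVEC4-10 (interval -0.50 to 0.22), and the log2 ratio of Srsf3 to Srsf7 counts overlapped between the lines, at 1.67, 1.57 and 1.32 in 2H-11, against 1.29, 1.39 and 1.72 in SVEC4-10. Srsf1, the first SR protein to be purified and an oncogene in mouse and human cells, was at 41.9, 44.6 and 60.9 CPM in 2H-11, against 37.4, 47.1 and 54.9 CPM in SVEC4-10 (interval -0.49 to 0.45, adjusted p = 0.957). In both lines replicate 3 was the highest for Srsf1, and the same held for Srsf2, an activator of exon inclusion, at 32.6, 36.1 and 52.0 CPM in 2H-11, against 39.7, 39.7 and 52.0 CPM in SVEC4-10 (adjusted p = 0.490). Srsf9 was at 43.7 ± 3.53 CPM over the 2H-11 libraries and 35.7 ± 13.9 CPM over those of SVEC4-10, its SVEC4-10 libraries spanning 23.7 to 51.0 CPM (adjusted p = 0.617). Srsf4, Srsf5 and Srsf6 form a subgroup with 2 RNA recognition motifs. Srsf5 was at 304 ± 56.7 CPM over the 2H-11 libraries and 338 ± 73.0 CPM over those of SVEC4-10 (log2 fold change -0.26, adjusted p = 0.318) and Srsf6 at 170.2 ± 3.45 CPM over the 2H-11 libraries and 197 ± 28.7 CPM over those of SVEC4-10 (log2 fold change -0.31, adjusted p = 0.172). Without SVEC4-10 replicate 1, Srsf5 and Srsf6 passed as lower in 2H-11 (adjusted p = 0.0368 for Srsf5 and 0.0460 for Srsf6). Srsf4 went against them, at 9.86, 10.96 and 9.61 CPM in 2H-11, against 5.38, 6.06 and 8.39 CPM in SVEC4-10. Its lines did not overlap, but with 154 counts in 2H-11 and 186 in SVEC4-10 the interval ran from -0.13 to 1.06 (adjusted p = 0.217), and a 2-fold difference lay within it. Srsf10, an SR-like protein that acts as a splicing repressor when dephosphorylated in heat shock, was at 186, 190.2 and 141 CPM in 2H-11, against 127, 147 and 116 CPM in SVEC4-10 (log2 fold change 0.30, adjusted p = 0.211). Srsf11 was at 18.9 ± 3.92 CPM over the 2H-11 libraries and 19.6 ± 0.915 CPM over those of SVEC4-10 (adjusted p = 0.682).

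Many members were lowest or highest in the same library of a line. How many of all genes were so was not counted, so this cannot be called particular to the members. In 2H-11, replicate 3 was the lowest library for 20 of the 30 members with counts, and in SVEC4-10 replicate 1 was the lowest for 18 and replicate 3 the highest for 17. Ribosomal protein genes took 14.3, 15.8 and 17.3% of the counts in 2H-11 replicates 1 to 3. Genes without Ensembl identifiers took 6.89, 8.13 and 9.39% in 2H-11, against 7.49, 6.48 and 6.74% in SVEC4-10. A link of these shares to the levels of the members was not tested. The summed CPM of all members was 9501, 9109.5 and 7246 in 2H-11 and 7919, 9579.7 and 9374 in SVEC4-10. The coefficient of variation within a line had a median of 15.8% in 2H-11 and 15.6% in SVEC4-10, and its highest value was 58.0%, for Hnrnpd in SVEC4-10. The number of members called moved with single libraries: leaving out 1 library at a time gave 2 to 7 members lower and 0 or 1 higher. Without SVEC4-10 replicate 1 the members lower were 7, namely Hnrnpa1, Hnrnpdl, Hnrnpf, Hnrnph3, Hnrnpul2, Srsf5 and Srsf6. In that fit 2203 of all 14570 genes tested were lower and 2779 higher. With 2H-11 replicate 2 or SVEC4-10 replicate 3 left out the members lower were 2, Hnrnpf and Hnrnph3. Over all genes, 1754 of 14243 were lower and 2380 higher without 2H-11 replicate 2. Without SVEC4-10 replicate 3, 1930 of 13668 were lower and 2335 higher.

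Beyond their counts, the members shared features of transcript and promoter annotation that the rule did not use. Of the 31 genes, 19 had at least 1 transcript annotated as a target of nonsense-mediated decay in GENCODE M21 (61.3%), 9 of 11 SR protein genes and 10 of 20 hnRNP genes, against 20.8% of 21914 protein-coding genes of the table. Annotated transcripts with a retained intron were found for 22 members (71.0%) and for 41.6% of those genes; the number of annotated transcripts per gene was not matched in this comparison. The gene table sums all transcripts of a gene, so coding and decay-prone forms are not separated in any value above.

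Promoter sequence was available for 29 members (RefSeq, GRCm38.p6; 250 bases before the most upstream start). Their median GC content was 65.2%, against 52.0% over 27025 promoters of coding and noncoding genes, with a median of 23 CpG against 6. Where RefSeq lists several starts the window need not be the promoter in use, and for Hnrnph3 it lies inside the span that GENCODE gives the gene. The window of Hnrnpf, 1 of 4 listed, had 50.4% GC and 0 matches to GGGCGG. On either strand, the motif CCAAT or its complement ATTGG was present in 51.7% of member promoters and 34.5% of all, and GGGCGG or CCGCCC in 79.3% and 33.0%. CGGAAG or CTTCCG was present in 34.5% of member promoters and 13.8% of all, and TATAAA or TTTATA in 10.3% and 13.0%. The motifs GGGCGG and CGGAAG can share bases, GC content was not matched, and a match describes letters, not a bound site.

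Several hnRNP proteins carry other symbols, and over this list of 13 genes, all tested, 2 were higher and 3 lower in 2H-11, with a median log2 fold change of -0.10. These 5 were 38.5% of the list, near the 36.2% of all genes. Besides Syncrip, the lower ones were Cirbp and Rbmx. Cirbp, the cold-inducible RNA-binding protein (hnRNP A18), was at 8.19, 8.53 and 12.5 CPM in 2H-11, against 31.3, 26.7 and 20.4 CPM in SVEC4-10, 2.79-fold lower (log2 difference -1.48 with SE 0.26, adjusted p = 0.000192). Rbmx, hnRNP G, a partner of TRA2 on the X chromosome, was at 35.9, 22.9 and 17.9 CPM in 2H-11, against 47.0, 43.0 and 45.0 CPM in SVEC4-10, 1.89-fold lower (log2 difference -0.91 with SE 0.23, adjusted p = 0.00464). Higher in 2H-11 were Pcbp4 and Ptbp2. Pcbp4, a poly(C)-binding protein of the hnRNP E group, was at 16.4, 17.1 and 23.3 CPM in 2H-11, against 9.58, 6.34 and 7.50 CPM in SVEC4-10 (2.29-fold higher, log2 difference 1.20 with SE 0.26, adjusted p = 0.00147). Ptbp2, the neuronal polypyrimidine tract-binding protein, was at 16.0, 13.9 and 8.75 CPM in 2H-11, against 3.97, 4.96 and 6.67 CPM in SVEC4-10 (2.20-fold higher, log2 difference 1.14 with SE 0.31, adjusted p = 0.00700). For these 4 genes no library of one line overlapped the other. Ptbp1, hnRNP I, which in neural precursors represses Ptbp2 splicing, was at 274, 224 and 180.4 CPM in 2H-11, against 233, 235 and 295 CPM in SVEC4-10 and did not pass (adjusted p = 0.259). Neither did Pcbp1, Pcbp2 or Raly.

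**Figure D5:**
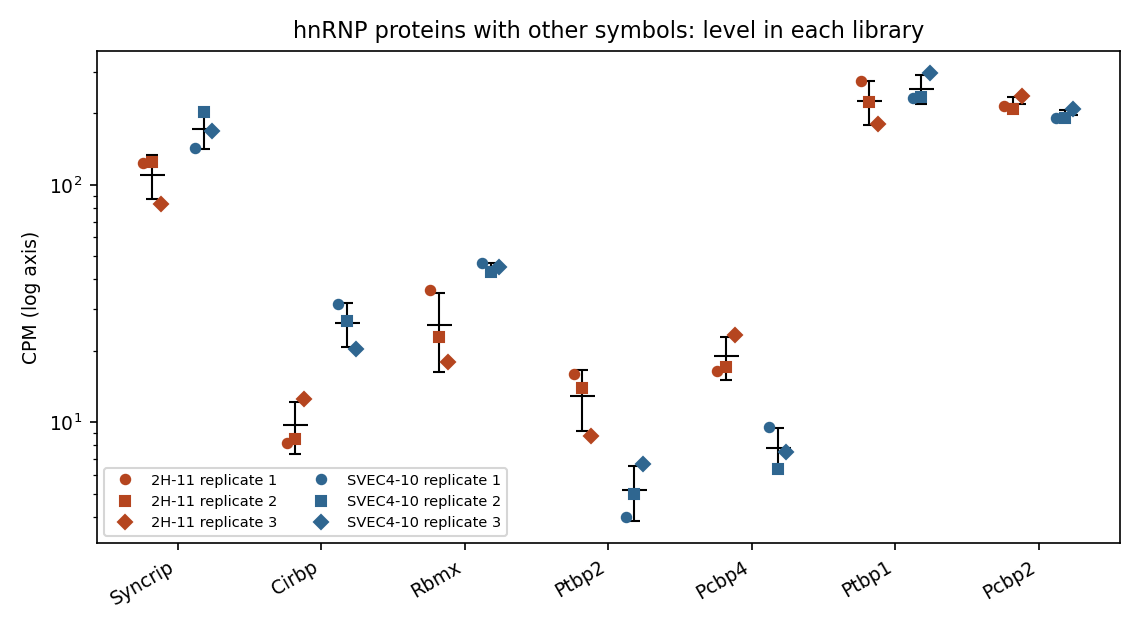
CPM in each library (y axis, log scale) of 7 hnRNP genes that carry other symbols, 2H-11 in orange on the left of each pair and SVEC4-10 in blue on the right; symbols are replicates, and bars are the mean with its SD over 3 libraries. Syncrip, Cirbp and Rbmx lie lower in 2H-11, Ptbp2 and Pcbp4 lie higher, and Ptbp1 and Pcbp2 did not pass the threshold.

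Gene lists of the splicing machinery and its regulators were set beside the members. Of 36 core snRNP and spliceosome genes, all tested, 1 was higher and 3 were lower in 2H-11, with a median log2 fold change of -0.09. Those 4 calls made up 11.1% of that list, against 36.2% of all genes and 31.8% of Ensembl genes tested. Snrpd3, a core Sm protein of the snRNPs, was at 299 ± 49.4 CPM over the 2H-11 libraries and 522 ± 53.0 CPM over those of SVEC4-10 (log2 difference -0.90 with SE 0.18, adjusted p = 0.000578). Sf3b6, the branch-point protein p14 of the U2 snRNP, was at 119 ± 9.89 CPM over the 2H-11 libraries and 174 ± 17.3 CPM over those of SVEC4-10 (log2 difference -0.65 with SE 0.18, adjusted p = 0.00739). The third lower gene was Sf3a2, another U2 snRNP protein, at 13.1 ± 1.32 CPM over the 2H-11 libraries and 23.3 ± 6.93 CPM over those of SVEC4-10 (log2 difference -0.90 with SE 0.25, adjusted p = 0.00740). The higher one was Ddx17, an RNA helicase, at 376, 418 and 256 CPM in 2H-11, against 138, 76.9 and 305 CPM in SVEC4-10 (adjusted p = 0.0346). SVEC4-10 replicate 3 exceeded 1 library of 2H-11 for Ddx17, and the call was lost with DESeq2 (adjusted p = 0.218) and without 2H-11 replicate 1, 2H-11 replicate 2, SVEC4-10 replicate 1 or SVEC4-10 replicate 2 (adjusted p 0.0578 to 0.171). Among 15 tested kinases, importins and phosphatases of SR proteins, 1 was lower (6.67%) and 0 were higher. It was Ppp1cb, a catalytic subunit of protein phosphatase 1, at 36.2 ± 9.73 CPM over the 2H-11 libraries and 54.0 ± 4.53 CPM over those of SVEC4-10 (log2 difference -0.68 with SE 0.22, adjusted p = 0.0201), and its call was lost with library totals alone and without 2H-11 replicate 3 or SVEC4-10 replicate 2 (adjusted p 0.0532 to 0.0756). The SR protein kinase Srpk2 was at 31.6, 23.6 and 15.6 CPM in 2H-11, against 37.4, 25.9 and 37.3 CPM in SVEC4-10 and did not pass (adjusted p = 0.0589). It passed, as lower in 2H-11, in 4 of 16 alternatives. Srpk1 was at 125 ± 25.2 CPM over the 2H-11 libraries and 100.2 ± 1.52 CPM over those of SVEC4-10 (adjusted p = 0.399). Of 17 SR-related coactivators, 0 passed by edgeR, with 2 at an unadjusted p under 0.05. Bclaf1 was at 132 ± 42.1 CPM over the 2H-11 libraries and 177 ± 10.4 CPM over those of SVEC4-10 (adjusted p = 0.0569). Luc7l, a U1 snRNP protein, was at 90.5 ± 8.96 CPM over the 2H-11 libraries and 111 ± 3.78 CPM over those of SVEC4-10 (adjusted p = 0.0906). Bclaf1 passed, as lower in 2H-11, in 4 of 16 alternatives, and Luc7l in 0.

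Of 15 nonsense-mediated decay and exon junction genes, 2 were lower in 2H-11 and 0 higher. These 2 were 13.3% of the list, against 36.2% of all genes and 31.8% of Ensembl genes tested. Upf2, which bridges the helicase UPF1 to the exon junction complex, was at 35.5, 35.6 and 23.3 CPM in 2H-11, against 55.4, 57.9 and 56.5 CPM in SVEC4-10, 1.93-fold lower without overlap (log2 difference -0.95 with SE 0.21, adjusted p = 0.00135). Magohb, a core protein of the exon junction complex, was at 89.0 ± 8.73 CPM over the 2H-11 libraries and 125 ± 15.0 CPM over those of SVEC4-10 (log2 difference -0.59 with SE 0.18, adjusted p = 0.0174), and its call was lost without 2H-11 replicate 1 (adjusted p = 0.0591). Its close copy Magoh could share reads with it. Among 7 tested genes of arginine methylation, which modifies the RGG repeats of hnRNPs, Prmt3 was lower and Prmt7 higher (28.6% of those tested). Prmt3, best known for methylating a ribosomal protein, was at 19.5, 23.1 and 19.7 CPM in 2H-11, against 56.8, 78.5 and 35.9 CPM in SVEC4-10 (2.92-fold lower, log2 difference -1.54 with SE 0.26, adjusted p = 0.000133). Prmt7 was at 57.4 ± 15.3 CPM over the 2H-11 libraries and 33.0 ± 3.77 CPM over those of SVEC4-10 (log2 difference 0.70 with SE 0.22, adjusted p = 0.0174), and its call was lost without 2H-11 replicate 1, SVEC4-10 replicate 1 or SVEC4-10 replicate 3 (adjusted p 0.0728 to 0.121). Prmt1, the main enzyme for hnRNPs, was at 139 ± 13.6 CPM over the 2H-11 libraries and 173 ± 32.9 CPM over those of SVEC4-10 and did not pass (adjusted p = 0.0948). Of 20 tissue-specific regulators of splicing 13 could be tested, and 1 of those passed (7.69%). Khdrbs3, a STAR family splicing regulator of brain and testis, had 57 counts in 2H-11 and 2 in SVEC4-10. This gave a ratio of 46.0 in summed counts over totals (95% counting interval 12.2 to 389). The edgeR test gave a 35.5-fold higher level in 2H-11 (95% interval 13.4 to 94.0, adjusted p = 6.33e-06). Both SVEC4-10 counts were in replicate 3, without which Khdrbs3 was at least 9.49-fold higher in 2H-11. Rbfox2, which binds GCAUG in introns, was at 74.8 ± 9.59 CPM over the 2H-11 libraries and 50.8 ± 6.63 CPM over those of SVEC4-10 and did not pass (adjusted p = 0.0589). It passed, as higher in 2H-11, in 4 of 16 alternatives.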

How the data were processed

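Polyadenylated RNA of 3 libraries of 2H-11 and 3 of SVEC4-10 was sequenced directly on a nanopore instrument (kit SQK-RNA002, per the labels' protocols). Genome builds mm10 and GRCm38 are named in the submitters' processing notes; for the aligner and counter, nothing is given in the sources used here, nor for strand use or filters. For each gene the authors deposited raw read counts and the same values as CPM, each count scaled by its library total, per the file headers. Lines of the table that named no gene (13) were left out. Genes passing filterByExpr (minimum count 10, minimum total 15) were fitted with edgeR 4.0.16 in R 4.3.3 (TMM scaling, quasi-likelihood test, cell line as the only term), and p-values were adjusted by Benjamini-Hochberg over 13187 genes, with a threshold of 0.05. Fold changes are 2H-11 over SVEC4-10, from TMM-scaled counts, while printed levels are CPM; 95% intervals use the fit's SE and degrees of freedom. Alternatives, 16 in all, used DESeq2 1.42.0, a replicate block, limma-voom (limma 3.58.1), other scalings, filters and gene sets, thinning, and omission of each library. Coordinates came from GENCODE M21 (GRCm38), in which 31 of 31 member identifiers were found with equal symbols. Named were all members past the threshold in full, their close paralogs by value, other members by value or range, and the 2 genes with the smallest p per pathway list; further list genes were named after their values were seen. Some genes of the lists are not reported here. Members and lists were chosen with earlier results of these data known. Total counts of 3628400 to 16798666 per library set the precision, and floors and intervals on counts cover counting error only.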

Additional observations from a re-analysis of the deposited data

How the results depend on the processing

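Hnrnpf and Hnrnph3 kept their call and direction in all 16 alternatives, and 22 of the 25 members that did not pass stayed short of the threshold in all of them; 11 of the 30 members changed sign in some alternative, none of these while past the threshold. Over members and alternatives 457 of the values kept their side of the threshold and direction (a sign change of an uncalled member is counted as kept), 18 fell short of it, 5 newly passed and 0 were reversed. With library totals alone, 2 members were lower, 3 hnRNP genes were called, 9 context genes were higher, and the median of the members was -0.0526. With Ensembl identifiers only, the same values were 2, 3, 9 and -0.0437. Without a filter on low counts 0 members were higher, 17 context genes were lower and the median was -0.22. Over all genes fitted in both, log2 fold changes moved from the main analysis by a median of 0.091 with library totals alone. The median move was 0.099 with Ensembl identifiers only and -0.076 without the filter. Of all 13187 genes tested, 1752 were lower and 2931 higher with library totals alone. With Ensembl identifiers only, 1631 of 10170 were lower and 1657 higher. The cause of these differences was not tested. Leaving out 1 library gave 0 to 1 members higher, 2 to 7 lower, 0 to 2 SR protein genes called and 2 to 5 hnRNP genes called. It gave 3 to 6 context genes higher and 10 to 16 lower, and a median of the members of -0.30 to -0.11. Over all genes, lower calls ran from 1754 of 14243 (without 2H-11 replicate 2) to 2220 of 13634 (without 2H-11 replicate 1). Higher calls ran from 2281 of 13218 (without 2H-11 replicate 3) to 2929 of 13634 (without 2H-11 replicate 1). Fewer samples were then fitted.

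Deviations from the line means correlated at -0.07 to 0.05 between libraries of the same replicate number. Each 2H-11 library correlated best, though weakly, with a SVEC4-10 library of another number, replicate 1 with replicate 2 (0.148), replicate 2 with replicate 3 (0.152) and replicate 3 with replicate 1 (0.171). Deviations of the 3 libraries of a line sum to 0, so these values cannot exclude a pairing by number. With the replicate block 0 members were higher and 3 hnRNP genes were called (Hnrnpf, Hnrnph3 and Hnrnpul2, all lower), and over all genes 4461 were called, against 4778 without it. Counts of tested members were lowest for Srsf4 (154 in 2H-11 and 186 in SVEC4-10), whereas the variation between libraries was highest for Hnrnpul2 in 2H-11 (33.3%) and Hnrnpd in SVEC4-10 (58.0%). Messenger RNA counts per gene say nothing of isoforms, protein or phosphorylation.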
